A study of Mus musculus with 18 samples.

Results

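The genes described here are Cdk2, its cyclin partners Ccne1, Ccne2 and Ccna2, and 5 genes that promote the activity or expression of this kinase complex, Cdc25a, Skp2, Cks1b, E2f1 and E2f2. The 9 genes were taken by symbol. All 9 were found among the 17379 genes of the sgNAT10 mRNA table, the 10974 genes of its ribosome footprint table and the 28738 genes of the sgMyc mRNA table, and none was among the 1066 genes with a peak in the table of acetylated RNA. The cells were TC1, a mouse tumour line that the labels call fibrosarcoma, either wild type (WT) or edited with a guide RNA against Nat10 (sgNAT10), the gene of an RNA acetyltransferase, or against Myc (sgMyc), the gene of a transcription factor that drives growth. Messenger RNA was sequenced from 2 WT and 2 sgNAT10 libraries in the sgNAT10 set and from 3 WT and 3 sgMyc libraries in the sgMyc set, and ribosome footprints (Ribo-seq) likewise from 2 libraries of WT and 2 of sgNAT10. Immunoprecipitation of acetylated RNA was done for 1 WT and 1 sgNAT10 sample, each with its input. The labels name no group with a control guide, and each edited line was set against the unedited cells of its own set. The labels do not say whether an edited line was a clone or a pool, or whether numbered libraries came from separate cultures, so p-values measure the spread between these libraries, which may be technical. The title of the study names Cdk2 on a path with Myc and Dnmt1, and the question put to each comparison was how far the kinase, its partners and its activators moved with each edit.

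CDK2 is a serine/threonine kinase that is active only when bound to a cyclin: cyclin E (Ccne1, Ccne2) at the entry into S phase and cyclin A (Ccna2) during S phase. The phosphatase CDC25A removes inhibitory phosphates from the kinase, and SKP2 with its cofactor CKS1 (Cks1b) directs the CDK inhibitor p27 to degradation. E2F1 and E2F2 are transcription factors held back by the retinoblastoma protein; CDK phosphorylation of that protein releases them, and E2F factors in turn activate cyclin E, cyclin A and other S phase genes. MYC and E2F proteins are known regulators of several of these genes.

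Promoter windows of 250 bases before to 50 after an annotated start, taken from RefSeq (GRCm38.p6), were used for 7 of the 9 genes, 9 windows in all, and those of Ccna2 and Ccne2 were not analysed here. Each window was searched on both strands for the E-box CACGTG, the core motif bound by MYC and related factors, and for 4 spellings of the E2F motif (TTTCCCGC, TTTGGCGC, TTTCGCGC and TTTGCCGC). The E-box was in none of the 9 windows and in 7.15% of all 32851 windows. An E2F spelling was in a window of 3 genes, Cdk2, Cdc25a and E2f2, and in 2.26% of all windows. These 3 windows are shown because they carry the matches, which are in capitals; the Cdk2 window is that of the gene with the largest change described below. All are written 5′ to 3′ in the direction of the gene.
Cdk2, chr10:128705002-128705301, minus strand: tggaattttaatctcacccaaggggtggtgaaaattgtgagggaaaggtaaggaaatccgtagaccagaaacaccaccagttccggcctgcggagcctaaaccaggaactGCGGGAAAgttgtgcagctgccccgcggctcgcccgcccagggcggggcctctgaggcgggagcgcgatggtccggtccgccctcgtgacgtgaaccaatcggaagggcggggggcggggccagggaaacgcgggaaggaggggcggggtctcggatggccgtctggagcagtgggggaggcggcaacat
Cdc25a, chr9:109875329-109875628, plus strand: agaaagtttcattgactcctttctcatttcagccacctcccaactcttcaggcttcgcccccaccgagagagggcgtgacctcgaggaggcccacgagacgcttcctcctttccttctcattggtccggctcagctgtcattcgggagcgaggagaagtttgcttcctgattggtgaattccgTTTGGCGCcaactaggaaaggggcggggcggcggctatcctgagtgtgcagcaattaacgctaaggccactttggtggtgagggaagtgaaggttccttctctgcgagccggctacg
E2f2, chr4:136172024-136172323, plus strand: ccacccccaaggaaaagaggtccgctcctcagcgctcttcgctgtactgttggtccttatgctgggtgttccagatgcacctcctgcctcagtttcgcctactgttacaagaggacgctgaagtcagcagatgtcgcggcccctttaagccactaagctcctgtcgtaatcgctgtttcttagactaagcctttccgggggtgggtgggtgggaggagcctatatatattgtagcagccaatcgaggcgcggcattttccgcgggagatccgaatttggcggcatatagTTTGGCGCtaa
The match began 140 bases before the start in Cdk2, where it reads on the other strand, 67 bases before it in Cdc25a and 39 bases after it in E2f2. A match is a description of letters and does not show that a factor binds there, and the absence of a match says only that these letters are not in the window. Whether a window lies at the main start of its gene was not checked. The E2f1 window in particular is not shown to be its promoter. Its lack of a match therefore cannot be read as a lack of the motif at the E2f1 promoter. A main promoter may thus lie outside the search.

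Whole reads recovered from the values summed to 11277512 to 14706630 per library in the sgNAT10 mRNA set and 1576854 to 3280214 in the footprints, and the deposited counts of the sgMyc set to 51875052 to 65768024. The third sgMyc library stood apart: the log2 difference between it and either other sgMyc library had an SD of 0.597 over 11907 genes, against 0.16 to 0.19 for the other pairs of that set, so results that use it are given with and without it. Nat10 mRNA was at 5.36 and 5.30 FPKM (fragments per kilobase of gene, scaled to the mapped fragments of the library) in WT and 3.59 and 3.95 in sgNAT10. Myc mRNA was at 64.8, 61.6 and 70.8 FPKM in WT and 21.1, 20.9 and 34.1 in sgMyc, the third again apart, and it was also lower in sgNAT10 (40.0 and 40.9 against 115 and 117 in its WT). These are transcript levels and not a measure of the edit itself. The summed FPKM of 8 fibroblast markers, 7 of them listed in the sgNAT10 tables and 8 in the sgMyc table, was 22.1 to 22.8 in WT and 96.4 to 97.3 in sgNAT10 mRNA, 56.0 to 61.2 and 150 to 160 in the footprints, and 120 to 139 in WT against 178 to 456 in sgMyc. Of these markers 3 rose and 2 fell of 5 tested in sgNAT10 mRNA, Thy1 from a mean of 1.19 to 41.8 and Col1a2 from 13.1 to 41.9 FPKM among those that rose, and 3 of 8 rose in sgMyc, or 7 without the third library. Over all genes tested 33.7% rose and 29.6% fell in sgNAT10 mRNA, and 7.11% rose in sgMyc, or 26.6% without that library. Of the other marker lists in mRNA, the summed level reached at most 0.0330 FPKM for T cells, 0.568 for endothelium and 0.862 for epithelium, while that of macrophages was 5.49 to 6.0 in WT and 12.2 to 13.7 in sgNAT10, and 10.9 to 12.3 in WT and 15.9 to 29.3 in sgMyc. Of the 3 macrophage markers tested, 1 passed in each set, Cd14, from a mean of 2.28 to 9.75 in sgNAT10 mRNA and from 8.09 to 18.7 in sgMyc, where 2 passed without the third library. Mki67 and Top2a, markers of cycling cells, summed to 98.5 to 100.3 in WT and 97.9 to 102 in sgNAT10, and to 119 to 124 in WT and 87.3 to 103 in sgMyc. The summed level of 9 mitochondrially encoded genes, taken as a sign of RNA quality, was lower in the edited cells of both sets, 15994 to 18178 against 13907 to 15237 for sgNAT10 mRNA and 23050 to 25593 against 14472 to 16954 for sgMyc, and lower in the footprints for the 6 that are listed there (823 to 893 against 125 to 198). Their part in the results below was not tested, and in bulk samples fewer cells of a kind and less RNA per cell cannot be told apart.

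**Figure D1:**
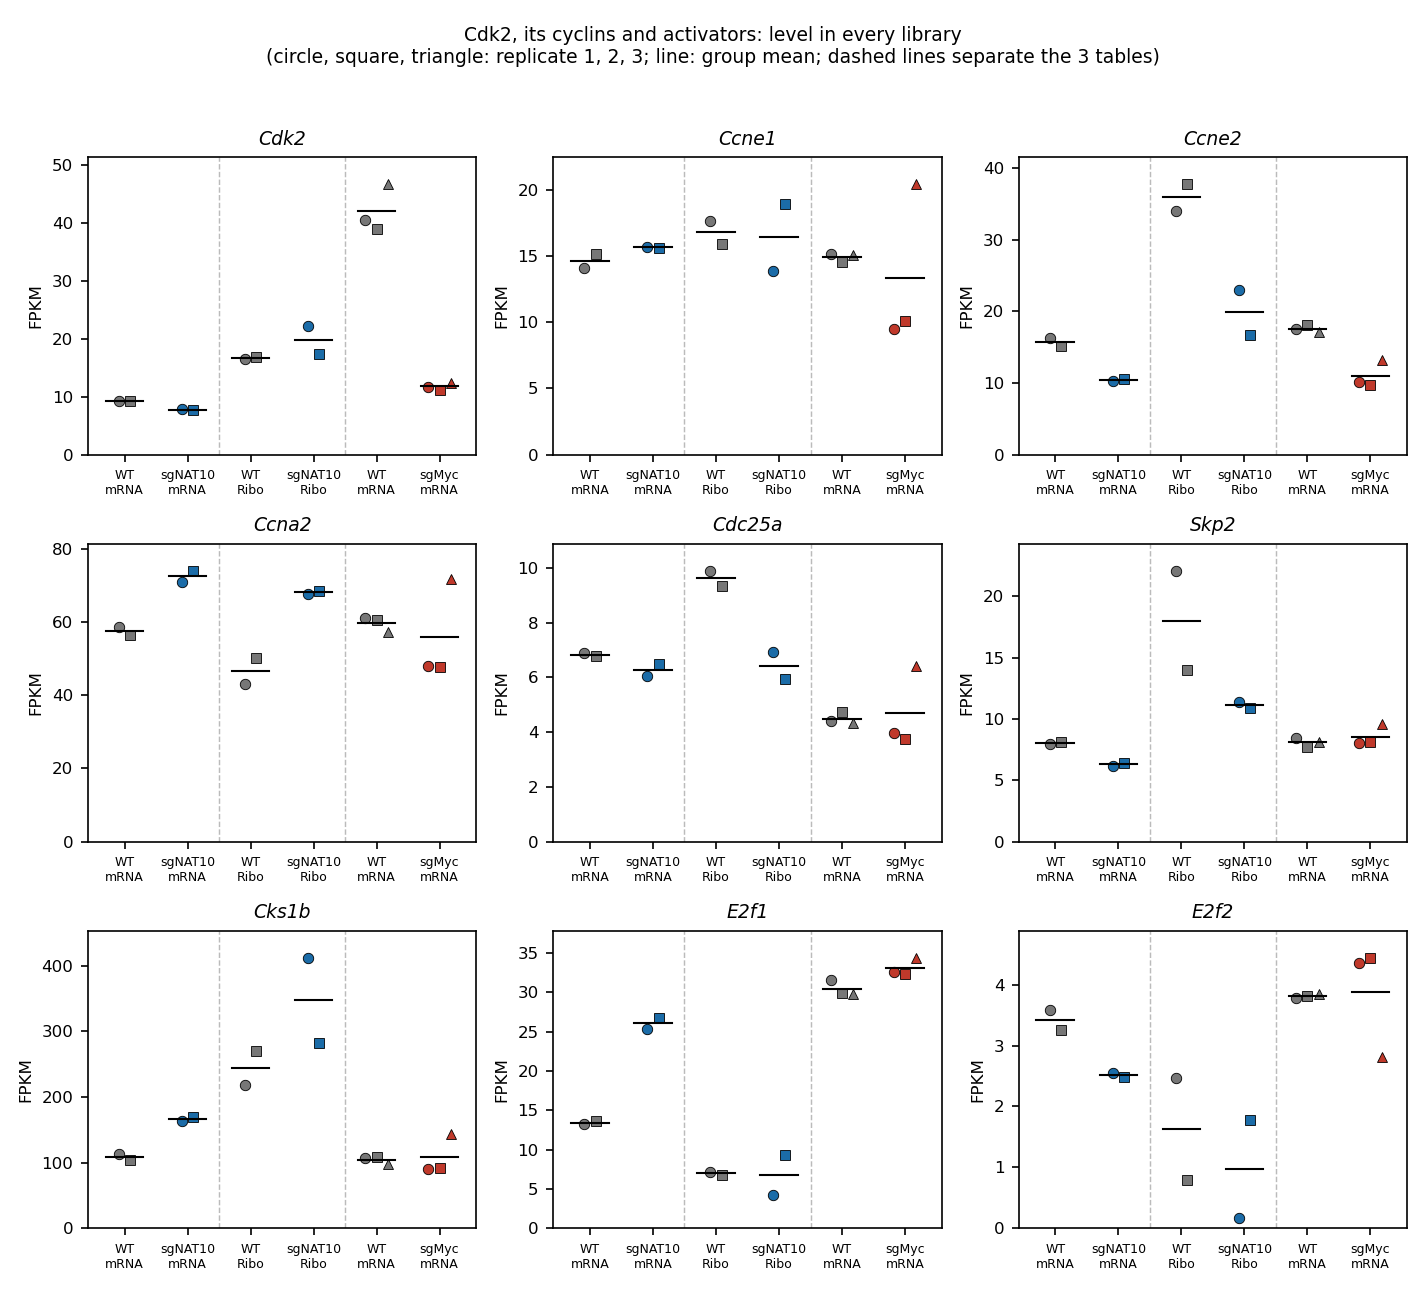
FPKM of each of the 9 genes (linear axis from 0) in every mRNA and footprint library, grouped by genotype and assay; symbols are replicates, black lines are group means and dashed lines separate the 3 tables. Cdk2 sits between 38.8 and 46.6 in the WT of the sgMyc set and between 11.2 and 12.4 in sgMyc, while the third sgMyc library (triangle) lies above the other sgMyc libraries for 8 of the 9 genes.

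In sgNAT10 cells the 9 mRNAs did not move one way. E2f1, Cks1b and Ccna2 rose, and Ccne2, E2f2, Skp2 and Cdk2 fell, at an adjusted p under 0.05 by limma on log2(FPKM + 1), while Ccne1 and Cdc25a did not pass. The median log2 fold change of the 9 was -0.11 against 0.01 over all genes. The calls are 7 of 9, in a comparison in which 63.3% of the 11735 genes tested passed, 33.7% of all genes higher and 29.6% lower. The WT and sgNAT10 libraries did not overlap for any of the 9 genes, which held for 82.3% of all genes tested. Both shares are near those of the whole table. Replicates of this set lay close. In a chi-square comparison of their reads, 0.684% of genes in WT and 1.33% in sgNAT10 passed a limit. Counting error alone would put 0.1% past it. In the sgMyc set, whose libraries held more reads, pairs without the third sgMyc library had 13.0% to 20.2% past it. The p-values of the sets thus rest on unlike spreads.

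Cdk2 mRNA, which codes for the kinase itself, was at 9.20 and 9.25 FPKM in WT and 7.86 and 7.66 in sgNAT10. Both edited libraries were lower than both WT libraries, and the change was small. The log2 fold change on log2(FPKM + 1) was -0.22 (SE 0.041, limma adjusted p = 0.00631), and the mean FPKM was 15.9% lower. It stayed past the threshold in each alternative fit that was run, with adjusted p from 3.02e-05 to 0.0389.

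The cyclins split. Ccne2 mRNA was at 16.2 and 15.2 FPKM in WT and 10.3 and 10.5 in sgNAT10, a log2 fold change of -0.55 (SE 0.046, limma adjusted p = 0.000401). Ccne1, the other cyclin E gene, was at 14.1 and 15.2 in WT and 15.7 and 15.6 in sgNAT10, and its difference of 0.09 (SE 0.047) had an adjusted p of 0.146 in limma. Ccna2, which pairs with the kinase later in S phase, went the other way from Ccne2. It was at 58.8 and 56.6 FPKM in WT and 71.0 and 74.0 in sgNAT10, with a log2 fold change of 0.32 (SE 0.037, limma adjusted p = 0.00108).

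The activators split as well. Cks1b, the SKP2 cofactor, was at 113 and 105 FPKM in WT and 163 and 169 in sgNAT10 (log2 fold change 0.61, SE 0.045, limma adjusted p = 0.000256). Skp2, the F-box protein it works with, was at 7.92 and 8.13 in WT and 6.20 and 6.37 in sgNAT10 (log2 fold change -0.31, SE 0.044, limma adjusted p = 0.0026). The 2 genes of this substrate recognition unit thus moved in opposite directions. Cdc25a, the phosphatase, was at 6.87 and 6.78 FPKM in WT and 6.05 and 6.47 in sgNAT10. Its log2 fold change of -0.11 (SE 0.051) had an adjusted p of 0.116 in limma, and it passed only on the whole reads recovered from the values, with edgeR (adjusted p = 0.0207).

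E2f1 showed the largest change of the 9 mRNAs in sgNAT10. It was at 13.2 and 13.6 FPKM in WT and 25.4 and 26.7 in sgNAT10, so that both edited libraries lay well above both WT libraries (1.95 times on the means, log2 fold change 0.91, SE 0.041, limma adjusted p = 6.0e-05). E2f2, the related activator E2F, was at 3.58 and 3.26 FPKM in WT and 2.54 and 2.49 in sgNAT10 (log2 fold change -0.33, SE 0.065, limma adjusted p = 0.00836). Without the first WT library its adjusted p was 0.0544. In the authors' deposited table of this comparison the same count was found, 3 genes higher and 4 lower at an adjusted p under 0.05, against 44.3% of all genes listed there. That share is over all 17379 listed genes with no filter on low values, unlike the shares of the limma test.

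**Figure D2:**
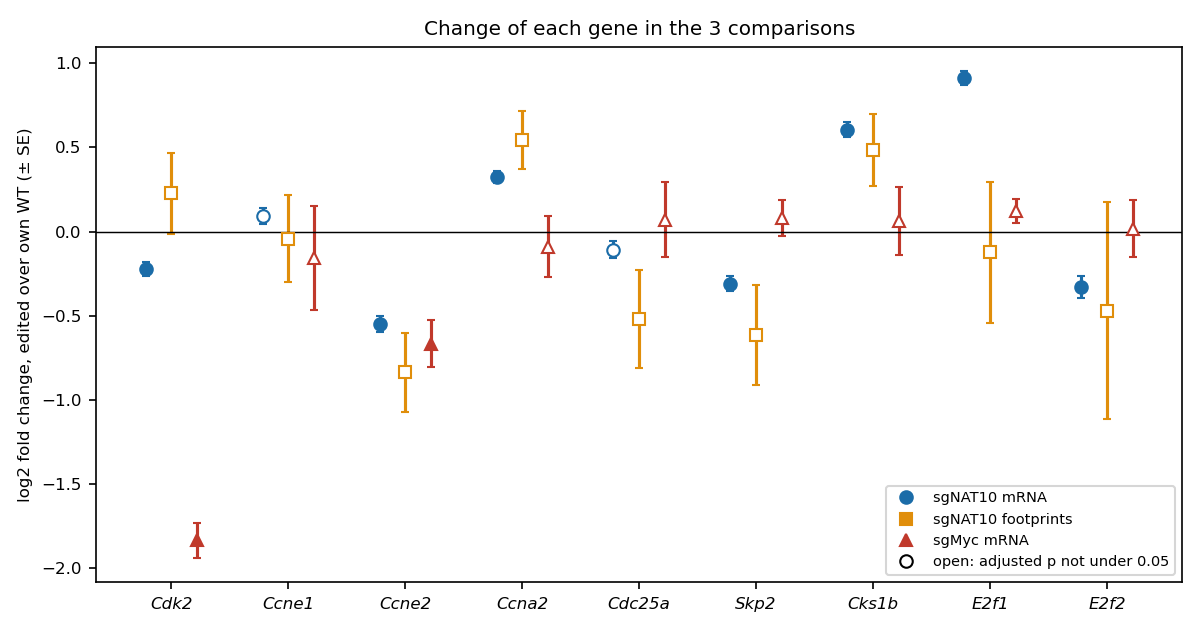
Log2 fold change of the edited cells over their own WT (± SE) for each of the 9 genes in sgNAT10 mRNA, sgNAT10 footprints and sgMyc mRNA; filled symbols passed the test and open ones did not. Cdk2 in sgMyc mRNA lies at -1.83, apart from the other 8 genes, and no footprint change is filled.

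Ribosome footprints count mRNA fragments covered by translating ribosomes and so follow both the amount of an mRNA and its translation. None of the 9 genes passed the test in footprints, by limma or by edgeR on the recovered reads; limma called 3.09% of the 9707 genes tested. At an unadjusted p under 0.05 in limma there were 2 of the 9, Ccna2 at 0.0191 and Ccne2 at 0.0123, a share near the 20.7% of all genes tested. Groups did not overlap for 6 of the 9 genes, against 51.1% of all genes tested. Footprint replicates spread more than those of mRNA: the log2 difference between replicates had an SD of 0.772 in WT and 0.691 in sgNAT10, against 0.148 and 0.168 in mRNA.

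Cdk2 footprints were at 16.4 and 16.9 FPKM in WT and 22.2 and 17.4 in sgNAT10, from 187 to 493 reads. Both edited libraries were above both WT libraries, the reverse of the order of its mRNA, but the log2 fold change of 0.23 had an SE of 0.24 (limma adjusted p = 0.649). Ccne2 footprints were at 34.0 and 37.7 FPKM in WT and 23.0 and 16.7 in sgNAT10 (log2 fold change -0.84, SE 0.24, limma adjusted p = 0.130). Ccna2 footprints were at 43.0 and 50.1 in WT and 67.7 and 68.6 in sgNAT10 (0.54, SE 0.17, limma adjusted p = 0.152). Both cyclins had footprint values on the same side as their mRNA. Ccne1 footprints overlapped between genotypes, with 17.6 and 15.9 FPKM in WT and 13.9 and 18.9 in sgNAT10.

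Among the activators, Cks1b footprints were at 219 and 271 FPKM in WT and 412 and 282 in sgNAT10 (log2 fold change 0.48, SE 0.21, limma adjusted p = 0.274). Skp2 footprints were at 22.1 and 14.0 in WT and 11.4 and 10.9 in sgNAT10 (-0.61, SE 0.30, limma adjusted p = 0.317). Cdc25a footprints were at 9.88 and 9.34 in WT and 6.91 and 5.92 in sgNAT10 (-0.52, SE 0.29, limma adjusted p = 0.386). For these 3 genes the genotypes did not overlap, yet the differences did not pass the test. The authors' deposited table lists 4 of the 9 footprint changes at an adjusted p under 0.05, Ccna2 (0.00874) and Cks1b (0.0379) higher and Ccne2 (0.0101) and Skp2 (0.0490) lower, against 15.1% of all genes in that table, whose test is not named. That share is over all 10974 listed genes with no filter on low values, unlike the share of the limma test.

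The E2F genes had few footprints. E2f1 footprints were at 7.14 and 6.82 FPKM in WT, from 71 and 66 reads, and at 4.17 and 9.37 in sgNAT10, from 47 and 51 reads. The edited libraries lay on either side of WT, and their exact Poisson intervals of 95%, 3.07 to 5.55 and 6.98 to 12.3 FPKM, did not meet, so that the replicates differed by more than counting error. E2f2 footprints were at 2.47 and 0.801 FPKM in WT and 0.172 and 1.78 in sgNAT10, from 38, 12, 3 and 15 reads. The Poisson intervals of the E2f2 replicates did not meet either, 1.75 to 3.39 and 0.414 to 1.40 FPKM in WT and 0.0355 to 0.503 and 0.997 to 2.94 in sgNAT10, and its change did not pass (log2 fold change -0.47, SE 0.64, limma adjusted p = 0.732). These intervals cover counting error only, and a spread beyond it was not particular to these genes. By the chi-square comparison of replicates, 35.8% of footprint genes in WT and 22.7% in sgNAT10 passed the limit that counting error alone would pass for 0.1%.

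The ratio of footprints to mRNA was taken as each Ribo-seq library over the mean mRNA of its genotype. The assays were normalized separately, so the size of the ratio alone cannot be read. Both assays were scaled to the same gene length, as far as the recovered reads show. The order among genes can therefore also follow how much of each mRNA is coding, which was not measured. The change between genotypes compares a gene with itself. In WT the ratio was 2.29 for Ccne2, 2.25 for Cks1b and 2.25 for Skp2, above 84.2%, 83.6% and 83.5% of the 9200 genes tested, whose median was 1.15. The ratio of Ccne1, the other cyclin E gene, was 1.15, above 50.1% of the genes. E2f1 and E2f2 were low, at 0.521 and 0.478, above 18% and 15.8%, though the WT libraries of E2f2 were far apart at 0.722 and 0.234. Ccne1 and Ccne2 thus had similar mRNA levels in WT, means of 14.6 and 15.7 FPKM, and footprint levels of 16.8 and 35.9.

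**Figure D3:**
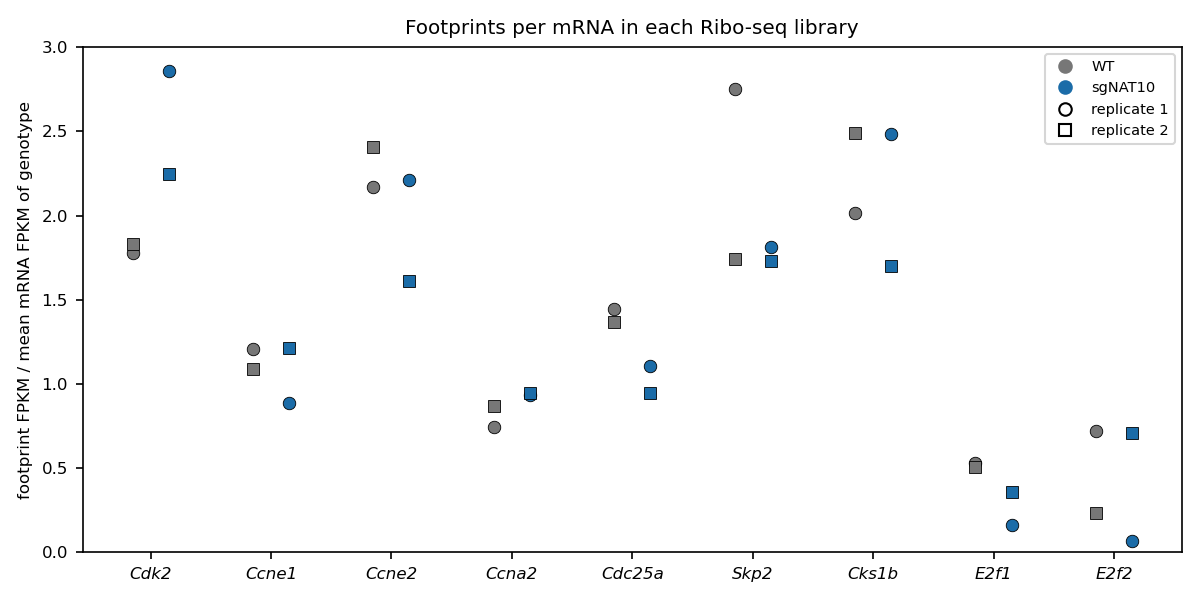
Footprint FPKM over the mean mRNA FPKM of the same genotype (linear axis from 0) in each Ribo-seq library for the 9 genes, WT in grey and sgNAT10 in blue. The genotypes do not overlap for Cdk2, Ccna2, Cdc25a and E2f1.

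Between genotypes the ratio did not pass the test for any of the 9 genes (genotype by assay interaction in limma), where 0.261% of all genes did; 1 of the 9, E2f1, had an unadjusted p under 0.05, as had 11.9% of all genes. The groups did not overlap for 4 of the 9, against 39.0% of all genes tested. For E2f1 the ratio was 0.533 and 0.509 in WT and 0.160 and 0.360 in sgNAT10, both edited libraries lower: its mRNA rose and its footprints did not pass the test, an interaction of -1.03 on the log2 scale (SE 0.426, limma adjusted p = 0.416, unadjusted 0.0485). It rests on 47 to 71 footprint reads per library, and the sgNAT10 Ribo-seq libraries differ. The interaction was -0.53 without the first and -1.53 without the second. Each of these fits leaves 1 sgNAT10 Ribo-seq library, so no spread between such libraries enters them. For Cdk2 the ratio was 1.78 and 1.83 in WT and 2.86 and 2.25 in sgNAT10, both edited libraries higher, an interaction of 0.45 (SE 0.20, limma adjusted p = 0.448). For Cdc25a it was 1.45 and 1.37 in WT and 1.10 and 0.946 in sgNAT10 (-0.41, SE 0.20, limma adjusted p = 0.496), and for Ccna2 0.745 and 0.869 in WT and 0.934 and 0.946 in sgNAT10 (0.22, SE 0.13, limma adjusted p = 0.576). The model takes 1 spread for both assays and can understate the error of the footprints.

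In sgMyc cells Cdk2 mRNA fell by far more than any other gene of the 9. It was at 40.5, 38.8 and 46.6 FPKM in WT and 11.7, 11.2 and 12.4 in sgMyc, from 13826 to 17857 and 4434 to 5678 reads. The 3 sgMyc libraries lay close together and far below WT, including the third, which stood apart over all genes. The mean was 0.28 times that of WT (log2 fold change -1.83, SE 0.105, edgeR adjusted p = 0.000554), and without the third sgMyc library the log2 fold change was -1.84 (edgeR adjusted p = 1.21e-07). Cdk2 overlaps Pmel on the opposite strand by 836 bases. Whether the counting used strand is not given in the sources used here. Pmel had 13 to 31 reads per library in this set and 8 to 19 in the sgNAT10 mRNA set, and reads within the overlap were not measured.

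By edgeR on the counts 2 of the 9 genes passed, Cdk2 and Ccne2, both lower, where 16.0% of the 16794 genes tested passed, 8.86% lower and 7.11% higher. Groups did not overlap for 3 of the 9, Cdk2, Ccne2 and E2f1, against 37.9% of all genes tested. Ccne2 was at 17.5, 18 and 17.1 FPKM in WT and 10.2, 9.68 and 13.2 in sgMyc, each edited library below each WT library (log2 fold change -0.67, SE 0.14, edgeR adjusted p = 0.0253). Without the third sgMyc library its log2 fold change was -0.79 (edgeR adjusted p = 1.44e-06), while leaving out any other single library of the set gave adjusted p from 0.0730 to 0.109. With the replicate number as a block it was 0.0650. Ccne2 overlaps Ints8 on the opposite strand by 5525 bases. Ints8 was at 11.0 to 11.2 FPKM in WT and 9.71 to 10.9 in sgMyc (log2 fold change -0.13, edgeR adjusted p = 0.359). It was also lower in sgNAT10 mRNA (-0.21, limma adjusted p = 0.0152) and in footprints (-0.53, limma adjusted p = 0.383). Each change had the direction of that of Ccne2 and was smaller, and reads within the overlap were not measured.

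**Figure D4:**
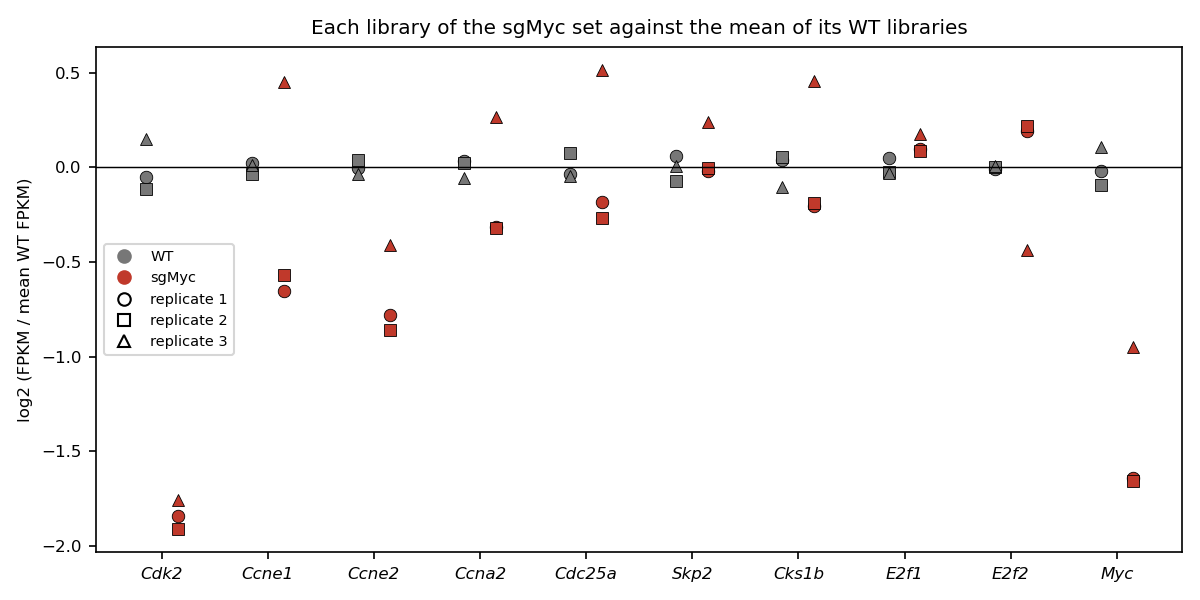
Log2 of FPKM over the mean WT FPKM for the 9 genes and Myc in each library of the sgMyc set, WT in grey and sgMyc in red, symbols by replicate. The first and second sgMyc libraries lie within 0.09 of each other for each of the 9 genes, the third departs from their mean by up to 1.06, and Cdk2 is far below WT in all 3.

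Among the other 7 genes the call depended on the third sgMyc library for 6, all but Skp2. It was above both other sgMyc libraries for 8 of the 9 genes and below both for E2f2. Ccne1 was at 15.2, 14.6 and 15.1 FPKM in WT and 9.5, 10.1 and 20.4 in sgMyc, and Ccna2 at 61.1, 60.6 and 57.3 in WT and 48.0, 47.8 and 71.9 in sgMyc. In both, the first and second edited libraries were below WT and the third above. With all libraries neither passed (edgeR adjusted p = 0.782 and 0.786). Without the third, Ccne1 fell by 0.58 and Ccna2 by 0.29 on the log2 scale (edgeR adjusted p = 3.39e-05 and 0.000127). Ccna2 overlaps Exosc9 on the opposite strand by 863 bases.

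Cks1b and Cdc25a had the same order. Cks1b was at 107, 109 and 97.2 FPKM in WT and 90.7, 91.5 and 143 in sgMyc, and Cdc25a was at 4.39, 4.74 and 4.35 in WT and 3.95, 3.74 and 6.42 in sgMyc. Their log2 fold changes were 0.06 and 0.07 with all libraries (edgeR adjusted p = 0.873 and 0.865) and -0.17 and -0.19 without the third (0.0170 and 0.0263). Skp2 was at 8.47, 7.73 and 8.16 in WT and 8.0, 8.1 and 9.59 in sgMyc, the first and second edited libraries within the range of WT. It did not pass with the third library (0.08, SE 0.11, edgeR adjusted p = 0.666) or without it (0.02, edgeR adjusted p = 0.778).

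E2f1 was at 31.5, 29.9 and 29.8 FPKM in WT and 32.6, 32.3 and 34.4 in sgMyc, each edited library above each WT library by a small margin (log2 fold change 0.12, SE 0.073, edgeR adjusted p = 0.317; 0.12 and 0.0219 without the third). E2f2 was at 3.78, 3.82 and 3.84 in WT and 4.35, 4.44 and 2.82 in sgMyc, the third library below WT and the others above. Its log2 fold change was 0.02 with all libraries (edgeR adjusted p = 0.960) and 0.24 without the third (0.0151). Without that library 8 of the 9 genes passed, 2 higher and 6 lower, where 53.6% of the 17485 genes then tested did, 26.6% higher and 26.9% lower. The third library also had the lowest fibroblast marker sum of the edited libraries, 178 against 455 and 456, and the highest Myc level of them. Their part in its values was not tested.

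The difference between the edits was tested in 1 limma model of the 10 mRNA libraries, as the sgMyc effect minus the sgNAT10 effect on log2(FPKM + 1), with no control libraries in common. It passed for 3 of the 9 genes, where 21.0% of the 10265 genes tested passed. For Cdk2 it was -1.53 (SE 0.12, limma adjusted p = 0.000114): the fall was larger in sgMyc. For E2f1 it was -0.79 (SE 0.083, limma adjusted p = 0.000495), since E2f1 rose in sgNAT10 and did not pass in sgMyc. For Skp2 it was 0.37 (limma adjusted p = 0.0480), close to the threshold, and 8 of the 10 fits that left out 1 library lost it.

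Ccne2 fell in both edits, and its difference of -0.09 (SE 0.16, limma adjusted p = 0.746) did not pass. That does not show equal effects, and without the third sgMyc library it was -0.21 (adjusted p = 0.0151). Cks1b and Ccna2, which rose in sgNAT10, had differences of -0.58 and -0.44 (limma adjusted p = 0.151 and 0.211). Without the third sgMyc library these were -0.80 and -0.63 (adjusted p = 1.54e-05 and 8.26e-06), and 8 of the 9 genes passed, all but Cdc25a, where 59.6% of all genes did.

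The unedited cells of the sets differed in Cdk2. Its mean WT level was 9.22 FPKM ± 0.0298 (SD, n = 2) in the sgNAT10 set and 42.0 ± 4.10 (SD, n = 3) in the sgMyc set, 4.55 times higher, and the mean of sgMyc, 11.8, was 1.28 times the WT level of the sgNAT10 set. A larger ratio in either direction was found for 4.40% of the 10265 genes measured in both tables. Over these genes the median log2 ratio was 0.51 without regard to direction, and 0.28 with its sign, sgMyc set over sgNAT10 set. The gene length that reads and FPKM imply for Cdk2 was the same in both tables, with a ratio of 0.999. E2f1 WT means were 13.4 and 30.4 FPKM, 2.27 times apart, a ratio that 16.2% of genes exceeded, and those of Cdc25a were 6.83 and 4.49. The other 6 genes were within 1.12 times of each other. The tables were normalized separately, and the set, its processing and the state of the unedited cells cannot be told apart. The E2f1 level of sgNAT10, 26.1 FPKM, lay near the WT level of the other set, as the Cdk2 level of sgMyc lay near the WT level of the sgNAT10 set.

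**Figure D5:**
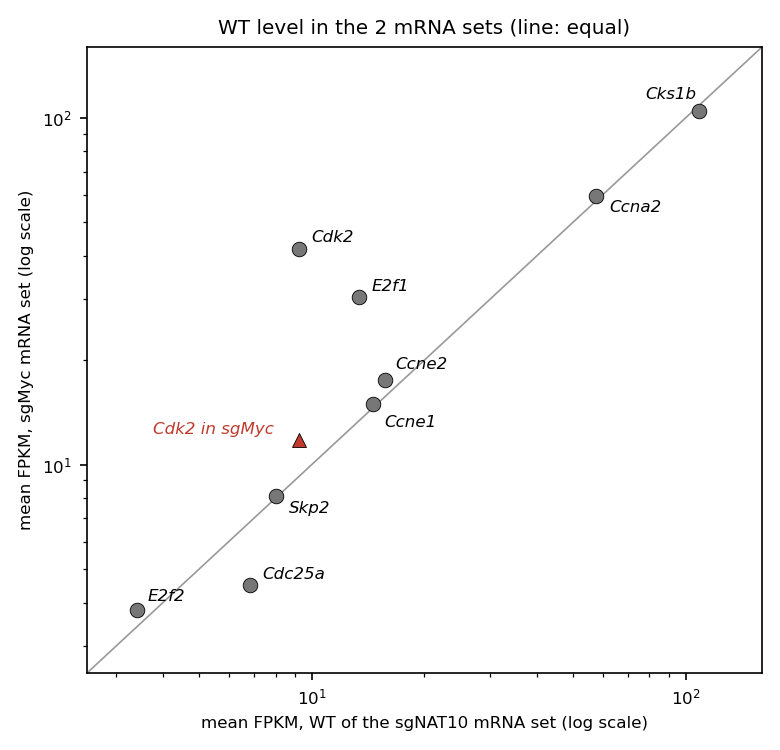
Mean WT FPKM of the 9 genes in the sgMyc mRNA set against that in the sgNAT10 mRNA set, both axes logarithmic; the line marks equal levels and the red triangle is Cdk2 in sgMyc. Cdk2 (9.22 and 42.0) and E2f1 (13.4 and 30.4) lie above the line, Cdc25a below it, and the other 6 genes on or near it.

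The 6 other lists of the pathway were counted in the same fits, without a test of the lists themselves. Over all genes tested, 33.7% rose and 29.6% fell in sgNAT10 mRNA, and 3.09% passed in footprints. In sgMyc 7.11% rose and 8.86% fell, or 26.6% and 26.9% without the third library. Of the inhibitors of CDK2 and the pocket proteins, 4 of 7 tested rose and 2 fell in sgNAT10 mRNA. Among them was Cdkn1a, which codes for the CDK inhibitor p21, at 123 FPKM in WT and 50.8 in sgNAT10 (log2 fold change -1.26, SE 0.034, limma adjusted p = 1.71e-05). Cdkn1a was also the only one of these lists' genes to pass in footprints (-1.36, SE 0.22, limma adjusted p = 0.0337). In sgMyc 2 of 7 fell, Rb1 (-0.85, edgeR adjusted p = 0.0448) and Rbl1 (-0.35, 0.0186), which code for the retinoblastoma protein and its relative p107; without the third library 3 rose and 3 fell.

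The 22 S phase genes controlled by E2F went both ways in sgNAT10 mRNA, 10 higher and 7 lower, with a median log2 fold change of 0.09 against 0.01 over all genes. Cdc45, a helicase component, rose by 0.56 (SE 0.045, limma adjusted p = 0.000328), while Cdt1, the replication licensing factor, fell by 0.80 (SE 0.041, limma adjusted p = 8.3e-05). In sgMyc 3 of the 22 fell, Pcna, Cdt1 and Pola1, and none rose, with a median of -0.25 against -0.03. Without the third library 20 fell and 1 rose, with a median of -0.40, where 26.9% of all genes fell and 26.6% rose. Their footprints had no call.

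Of the other E2F and DP factors 4 of 8 rose and 3 fell in sgNAT10 mRNA, E2f8, a repressor E2F, by 0.66 (SE 0.043, limma adjusted p = 0.000175). None of the 8 passed in sgMyc, and 1 rose and 4 fell without the third library. Of the other cell cycle kinases and cyclins 3 of 8 rose and 4 fell in sgNAT10, and 2 of 8 fell in sgMyc, Ccnd2 and Ccnd1, or 7 of 8 without the third library. Of the SCF and APC/C partners 1 of 7 rose and 1 fell in sgNAT10 mRNA, and of the CDK-activating kinase and other CDC25 phosphatases 2 of 5 rose, Cdc25b (0.47) and Cdc25c (0.39). In sgMyc neither list had a call with all libraries, while without the third 2 rose and 3 fell of the SCF and APC/C partners and 1 rose of the other list.

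The acetylated RNA table listed 1358 peaks and none in the 9 genes. It listed 3 in Myc and, among the pathway lists, peaks in Ccnd1, E2f4, E2f7, Mcm3 and Wee1. The E2f7 peak lay in its 3′ untranslated region with an enrichment over input of 7.07, as the authors' deposited table gives it. With 1 precipitate per genotype and a list of called regions only, a gene without a peak is not shown to lack acetylation.

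The genes whose 3 log2 fold changes (sgNAT10 mRNA, sgNAT10 footprints, sgMyc mRNA) were nearest to those of Cdk2 by Euclidean distance, among 9154 tested in all 3 comparisons, were Htra1, Aqp1, Map1a, Fbln2 and Ugcg. Predicted genes were left out of the ranking. The sgNAT10 values are on log2(FPKM + 1) and the sgMyc values from edgeR on counts, so the 3 are not on the same scale. The distances of these genes were 0.299 to 0.502, below the median of 1.97 because they were chosen as the nearest. Htra1 had log2 fold changes of -0.28, 0.10 and -1.57, and Aqp1 of -0.26, 0.49 and -1.97, beside -0.22, 0.23 and -1.83 for Cdk2. None of the 5 belongs to the lists of the pathway, and a near pattern over 3 comparisons is a description of these values.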

How the data were processed

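Libraries were mRNA, ribosome footprints and acetylated RNA of TC1 cells. Bowtie2 and featureCounts on mm10, with Trim Galore and FastQC, are listed in the submitters' processing notes with no version or order. The sgMyc table gives, per the file headers, both count and FPKM of each gene in each library. The sgNAT10 mRNA and footprint tables hold FPKM beside the authors' own log2 fold changes and p-values, made with an unnamed test. The deposited acetylated RNA table gives peaks with a fold enrichment and a log2 fold difference, and was described without a test.

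FPKM were tested as log2(FPKM + 1) with limma 3.58.1 (R 4.3.3, trended eBayes) where the mean over libraries reached 1 FPKM, and sgMyc counts with edgeR 4.0.16 (quasi-likelihood, filterByExpr, TMM). Fits ran over whole tables with Benjamini-Hochberg adjustment and a threshold of 0.05. Ratios of FPKM between libraries gave back whole reads, to within 1e-09, in 99.7% of mRNA and 98.6% of footprint genes; a common divisor of a gene's reads makes them too low. Alternatives were other pseudocounts, filters and scalings, DESeq2 1.42.0, edgeR on recovered reads, a replicate block and leaving out each library. Where that left 1 library in a group, it was assumed to vary like the others. The fitting code was run on simulated data with planted changes, which does not show that it finds changes of the sizes described here. The 9 genes and the lists were chosen with earlier results of these data known. From each list up to 3 genes per comparison were eligible for naming, those called with the largest change whose groups did not overlap, and some of them are named. Nat10 and Myc were given as checks of the labels, and the 5 genes nearest to Cdk2 were named by distance. Per-library values of genes beyond the 9 genes, Nat10 and Myc were taken only for overlapping genes.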

Additional observations from a re-analysis of the deposited data

Results flagged for a closer look

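The effect of the edits on mRNA differed between sgMyc and sgNAT10 for 3 genes by the test of the difference itself, in log2 units of sgMyc minus sgNAT10. For Cdk2 it was -1.53 (limma adjusted p = 0.000114), with Cdk2 lower than its own WT in all 3 sgMyc and both sgNAT10 libraries. For E2f1 it was -0.79 (limma adjusted p = 0.000495), with E2f1 higher than each own WT library in all 5 edited libraries. For Skp2 it was 0.37 (limma adjusted p = 0.0480), with Skp2 lower than WT in both sgNAT10 libraries and overlapping with WT in sgMyc. The WT levels of Cdk2 and E2f1 differed between the sets (4.55 and 2.27 times), and the part of this in the differences was not tested.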

How the results depend on the processing

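For the 9 genes in sgNAT10 mRNA no direction changed under any alternative run, and calls changed for Cdc25a with edgeR on recovered reads and for E2f2 without the first WT library, with 6 to 7 genes called when 1 library was left out. Same-numbered WT and edited libraries of a table did not deviate together (correlations of -0.0181 to 0.0245). Pairing between mRNA and Ribo-seq libraries was not checked. With the replicate number as a block, 1 of the 9 genes was called in sgMyc in place of 2, since Ccne2 was lost, Skp2 was lost in the difference between the edits (adjusted p = 0.0992), and the calls over all genes went from 2682 to 1082 in sgMyc, from 2153 to 1256 in the difference, from 24 to 1 in the footprint to mRNA ratio and from 300 to 240 in footprints. E2f2 in sgMyc turned from 0.02 to -0.0071 with the block and to -0.00095 with limma on FPKM. Without a filter on low values Skp2 was lost in the difference between the edits (adjusted p = 0.0577). Over all genes, footprint calls were 87 without a trend, 789 with edgeR on recovered reads and 0 to 9 when 1 library was left out. Calls of the ratio were 3 with array weights by assay.

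Leaving out each library in turn gave 1 to 8 of the 9 genes called in sgMyc (680 to 9368 over all genes), 2 to 8 in the difference between the edits (1136 to 6115) and 0 to 1 in the ratio (3 to 640); the highest counts of the 9 in sgMyc and the difference came without the third sgMyc library, and the 1 in the ratio, E2f1, without the second sgNAT10 Ribo-seq library (-1.53 to -0.53 over the fits). That fit of the ratio leaves 1 sgNAT10 Ribo-seq library, so its call uses no spread between edited footprint libraries. Directions turned in some of the fits that left out 1 library. In footprints the log2 fold changes ranged from -0.25 to 0.17 for Ccne1, -0.62 to 0.38 for E2f1 and -1.09 to 0.15 for E2f2. In the ratio they ranged from -0.35 to 0.076 for Ccne1, -0.62 to 0.0067 for Skp2, -0.39 to 0.15 for Cks1b and -0.76 to 0.48 for E2f2. In sgMyc they ranged from -0.58 to 0.065 for Ccne1, -0.29 to 0.042 for Ccna2, -0.19 to 0.24 for Cdc25a, -0.17 to 0.20 for Cks1b and -0.052 to 0.24 for E2f2, and in the difference from -0.071 to 0.25 for Cdc25a. The causes were not tested beyond the smaller number of libraries. The E2f1 and E2f2 footprints rest on few reads. Replicates differed by more than counting error for E2f2 in both genotypes and for E2f1 in sgNAT10 only.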
